A study of Mus musculus with 8 samples.

Results

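Cathepsins are proteases of the lysosome and cystatins are their inhibitors, and 10 of these genes were followed through the leukocytes of the mouse brain and its borders after stroke. They were chosen by name, with earlier results of these data known, from the 30406 genes that every library listed: the cathepsins Ctsa, Ctsb, Ctsc, Ctsd, Ctsk, Ctsl, Ctss and Ctsz and the cystatins Cst3 and Cst7. All 10 were detected. Levels are UMIs (unique molecular identifiers, each marking 1 captured transcript) of a gene per 1000000 UMIs (CPM), summed over the cells of 1 cluster in 1 library. The libraries tag transcripts at their 3′ end, so gene length does not enter this scale.

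The study sorted leukocytes of adult male C57BL/6 mice (C57BL/J in other labels) that carried CD45 but had not been reached by a CD45 antibody given intravenously shortly before perfusion, which sets cells inside the tissue apart from cells in blood. Wild-type mice underwent transient middle cerebral artery occlusion (MCAO), a model of ischemic stroke, and were compared with control mice, which the study's methods give as naive for the sequencing, although some of its legends call them sham. There were 8 libraries of single-cell RNA-sequencing from 3 tissues: brain parenchyma as control, at 24 h (replicates 1 and 2) and at 72 h, and the meningeal layers pia and dura each as control and at 24 h. The labels do not give the number of mice behind a library, and the title of control pia names brain while its other labels name pia. Only brain at 24 h has 2 libraries. P-values therefore measure the difference between these replicates together with how far the change at 24 h differs between tissues. That spread may be technical.

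The deposited annotation placed 32457 cells of 36854 barcodes in 21 clusters, with a median of 1083 to 2505 UMIs per annotated cell in the different libraries. Brain 24 h replicate 2 and brain 72 h stood apart: they list 31053 genes where the other 6 list 32285, and they share 0 to 2 annotated cell barcodes with each of the others, while the 15 pairs among those 6 share 10 to 32. In all, 581 annotated barcodes occur in more than 1 library. Every fit is therefore given without and with a term for the gene list. That term makes brain 24 h replicate 1 the only brain library at 24 h that enters the tissue and 24 h contrasts, and reduces 72 h against 24 h to brain 72 h minus brain 24 h replicate 2. P-values of fits with the term measure only how far the change at 24 h differs between tissues, and no spread between replicates.

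Most cathepsins are papain-like cysteine proteases that mature in the acid of the endosome and lysosome and are abundant in phagocytes, where they degrade engulfed protein and, in antigen-presenting cells, the invariant chain of MHC class II. Ctsd is an aspartic protease and Ctsa a serine carboxypeptidase. Cst3 encodes cystatin C, a secreted inhibitor of cysteine cathepsins and one of the most abundant transcripts of microglia and dendritic cells, whereas Cst7 encodes cystatin F, an inhibitor known from cytotoxic lymphocytes and from microglia in demyelination and neurodegeneration.

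The genes lie apart in the genome (GRCm38, GENCODE M21 annotation). Cst3 (chr2:148871722-148875692) and Cst7 (chr2:150570415-150578944) share chromosome 2 with Ctsa (chr2:164832873-164841032) and Ctsz (chr2:174427493-174439039), and Ctsk (chr3:95499256-95509362) and Ctss (chr3:95526786-95556403) are neighbours on chromosome 3. Ctsc (chr7:88278085-88310888) and Ctsd (chr7:142375911-142388038) lie on chromosome 7, Ctsl (chr13:64359337-64370890) on chromosome 13 and Ctsb (chr14:63122462-63145923) on chromosome 14. RefSeq promoters of GRCm38.p6, from 250 bases before to 50 after the start, were matched for 9 members, and the stretches below carry, in capitals and read 5′ to 3′ on the gene's strand, motifs known from lysosomal and from myeloid genes.
Ctsa, chr2:164833730-164833772, plus strand: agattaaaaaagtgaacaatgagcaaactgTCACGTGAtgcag
Ctsd, chr7:142387889-142387956, minus strand: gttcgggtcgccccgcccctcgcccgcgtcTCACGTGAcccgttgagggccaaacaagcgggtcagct
Ctsc, chr7:88277904-88277971, plus strand: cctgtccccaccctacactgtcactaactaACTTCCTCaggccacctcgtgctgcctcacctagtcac
The motif TCACGTGA, the palindrome at the heart of the CLEAR element that TFEB binds in lysosomal genes, was found in 2 of the 9, Ctsa and Ctsd, and in 0.974% of all 32851 promoters of this length. Its core CACGTG, which lies inside it, was found in 3 (Ctsa, Ctsd and Ctsl) and in 7.15% of all. GAGGAAGT, read on either strand and resembling the site of the myeloid factor PU.1, was found in 2 (Ctsc and Ctss) and in 3.2% of all. These matches are descriptions of letters in a window.

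The cluster names were first checked against markers. Ptprc, which encodes CD45, was detected in all 112 combinations of library and cluster with at least 30 cells, at 58.1 to 2149 CPM. The CAM clusters, named for CNS-associated macrophages, carried border macrophage genes (Pf4, Mrc1, Lyve1, Cd163 and F13a1) in pia and dura but hardly in brain. In CAM_1 the summed level of these 5 was 4408 to 6464 CPM in the 4 border libraries, 566 in brain 24 h replicate 2 and 805 in brain 72 h, but 49.8 in control brain and 7.99 in brain 24 h replicate 1, where 2 of the 5 were at 0 in each. The 5 microglia genes (Tmem119, P2ry12, Sparc, Siglech and Sall1) went the other way, with 10671 CPM in control brain, 2736 and 1219 in brain 24 h replicates 1 and 2, 489 in brain 72 h and 116 to 231 in the borders, where Sall1 was at 0. CAM_2 showed the same split, with border genes at 15.3 and microglia genes at 12203 CPM in control brain. In both clusters the microglia genes exceeded the border genes in 3 of the 4 brain libraries, narrowly so in brain 24 h replicate 2, where CAM_1 held 1219 against 566 CPM and CAM_2 983 against 648. The CAM label thus goes against the markers in these 3 libraries. This moves with every contrast of brain and border below and, since the microglia markers fell from control to 24 h and 72 h in brain, with the contrasts of time. Its part in those results was not tested. In the microglia clusters some libraries outside brain were also low in the microglia genes. Micro_1 of dura at 24 h held 444 CPM of them, with Siglech and Sall1 at 0. It also held 536 CPM of the monocyte genes Ly6c2, Ccr2 and Plac8. Micro_2 held 1063 and 562 CPM of the microglia genes in control and 24 h pia, against 11582 in control brain. These libraries enter the cluster means below, and Micro_2 of pia also enters the fits. Over whole libraries, genes of stress and dissociation summed to 21441 CPM in control brain, 14910 and 9315 at 24 h and 4426 at 72 h. They summed to 5695 and 3536 CPM in control and 24 h pia, and 2268 and 1924 in dura. Hba-a1 and Hbb-bs summed to 427 CPM in brain 24 h replicate 2 and 275 in brain 72 h. They were at 0 in the other brain libraries and at most 93.7 in the borders. Such sums also move with the makeup of cells, and their part was not tested.

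**Figure D1:**
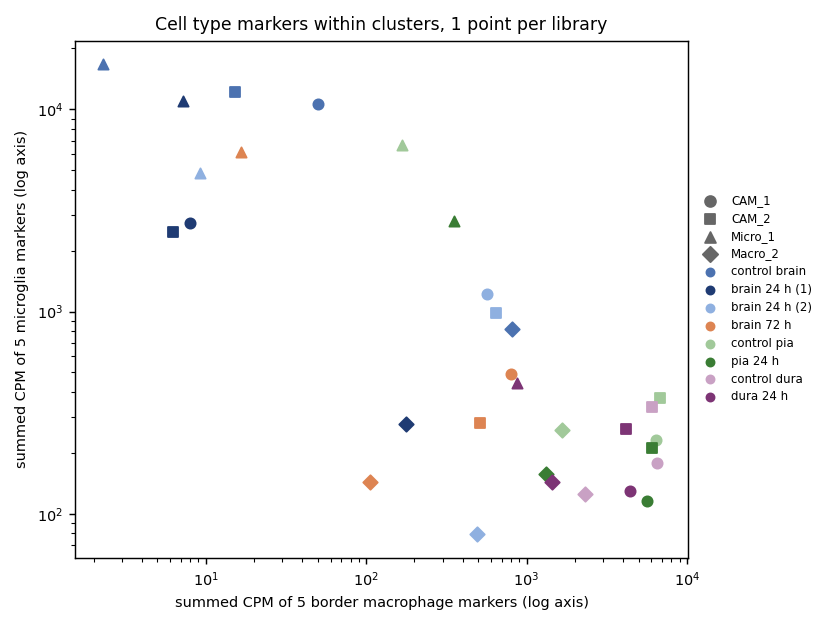
Summed CPM of the 5 microglia markers (vertical) against that of the 5 border macrophage markers (horizontal), both on log axes, with 1 point per library in CAM_1, CAM_2, Micro_1 and Macro_2. CAM_1 of control brain, at 10671 CPM of microglia markers, lies near Micro_1, and CAM_1 of pia and dura, at 4408 to 6464 CPM of border markers, lies at the other end.

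The 8 cathepsins and Cst3 each had their highest mean in a cluster of microglia, of macrophages or of stroke-associated myeloid cells, whereas Cst7 was highest in natural killer cells, Mast and T cells. Clusters were made from these same counts, so the order of levels is a description, given as the mean CPM ± SD over libraries in which the cluster had 30 cells or more.

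Ctsb, a cysteine protease with both endopeptidase and dipeptidase activity, was highest in stroke-associated myeloid cells (SAMC, the cluster the study defined after MCAO), at 11899 ± 4882 CPM (SD, n = 4). CAM_2 followed with 9108 ± 3268 (n = 8) and CAM_1 with 7243 ± 2401 (n = 8). This order held inside the libraries: SAMC stood above CAM_2 in 4 of 4 shared libraries and CAM_2 above CAM_1 in 8 of 8. Over the SAMC libraries Ctsb was 18473 and 7496 CPM in the replicates of brain at 24 h, 12623 at 72 h and 9004 in pia at 24 h, so the 2 replicates differed by more than any other pair of these libraries.

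Ctsl, an endopeptidase that also processes other cathepsins, was highest in SAMC too, at 2859 ± 1697 CPM (n = 4), ahead of Micro_3 at 1296 ± 677 (n = 6), one of 3 microglia clusters. SAMC was the higher in 3 of 4 shared libraries. Its levels in SAMC were 3749 and 4811 CPM in brain at 24 h, against 1414 in brain at 72 h and 1461 in pia at 24 h.

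Ctsz, a carboxypeptidase also called cathepsin X, was near level over the leading phagocyte clusters. Its means ran from 2665 ± 1019 CPM in SAMC (n = 4) to 2413 ± 797 in Micro_3 (n = 6), and SAMC was the higher in 3 of 4 shared libraries, so the top of this order is not clear of the spread. Ctsa, the carboxypeptidase that protects beta-galactosidase and neuraminidase in the lysosome, was likewise near level between SAMC at 1019 ± 267 CPM and CAM_2 at 968 ± 298, with SAMC above CAM_2 in 1 of 4.

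Ctss, which cleaves the invariant chain in antigen-presenting cells, was highest in microglia, at 7427 ± 3227 CPM in Micro_1 (n = 7) and 6809 ± 3081 in Micro_3 (n = 6), with Micro_1 above Micro_3 in 6 of 6 libraries. Micro_1 stood above CAM_2, at 5790 ± 3942 (n = 8), in 5 of 7. SAMC, the top cluster for Ctsb and Ctsl, held 4506 and 2192 CPM of Ctss in brain at 24 h, 4245 at 72 h and 3959 in pia at 24 h. In each of these 4 libraries but brain 72 h that was below Micro_1, which had 10152, 3441, 3929 and 7187 CPM in the same order.

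Ctsd, the main aspartic protease of the lysosome, was highest in stress_Micro (7898 ± 1688 CPM, n = 2), followed by SAMC at 5840 ± 5107 (n = 4) and Micro_1 at 5512 ± 3944 (n = 7). The first place rests on 2 libraries, and in both of them Micro_1 was the higher. SAMC was above Micro_1 in only 1 of 4 shared libraries, brain 72 h, at 12709 against 12684 CPM. Ctsc, the dipeptidase that activates granule proteases of neutrophils and cytotoxic cells, was highest in CAM_1 at 2165 ± 1124 CPM (n = 8), with CAM_2 at 1989 ± 978 (n = 8) and Granulo_1 at 1935 ± 936 (n = 7). The name of Granulo_1 goes against its markers in part: the neutrophil genes S100a8, S100a9, Retnlg, Cxcr2 and Csf3r summed to 77.5 to 3449 CPM there, against 122451 to 305849 in Granulo_2, and the monocyte genes Ly6c2, Ccr2 and Plac8 to 719.7 to 6951, against 497 to 1055. CAM_1 was above CAM_2 in 6 of 8 libraries and above Granulo_1 in 7 of 7.

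Ctsk, the collagen-degrading cathepsin of osteoclasts, was near absent. Its mean of 70.7 ± 182 CPM in CAM_2 (n = 8) came from dura at 24 h, which held 521 CPM, with 22.5 in control dura, 16.4 in brain 72 h, 5.89 in brain 24 h replicate 2 and 0 in the other 4. The 521 CPM were 156 UMIs from 5 of 131 cells, 1 of which held 115 of them. In brain at 72 h the transcript was thinner but shared more widely, by 33 of 642 CAM_2 cells and 39 of 485 SAMC.

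Cst3 had the highest cluster mean of any member. Micro_1 averaged 25399 ± 17090 CPM (n = 7), Micro_3 20681 ± 11585 (n = 6) and Micro_2 17124 ± 11813 (n = 6), and Micro_1 exceeded Micro_3 in 6 of 6 libraries. CAM_2 followed at 13989 ± 16742 (n = 8) and the dendritic cell cluster mDC1 at 12914 ± 8249 (n = 6), and natural killer (NK) cells were lowest at 599 ± 278 (n = 6). The place of CAM_2 did not hold inside libraries: it was above mDC1 in 1 of 6, and Micro_2 was above CAM_2 in 2 of 6. CAM_2 held 52792 CPM in control brain, against a median of 7607 over its libraries. For Cst7, NK cells at 174 ± 44.4 CPM (n = 6) and the Mast cluster at 173 ± 91 (n = 2) led, ahead of the T cell cluster Tc at 106 ± 25.7 (n = 8). Lymphocytes were not all high: B cells had the lowest mean of the 21 clusters (2.1 ± 2.45, n = 6) and ILC2 stood at 10.9 ± 16.9 (n = 5), below Micro_3 at 46 ± 47.7 (n = 6). NK was above Tc in 6 of 6 shared libraries, while NK and Mast could not be ordered (NK higher in 1 of 2).

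**Figure D2:**
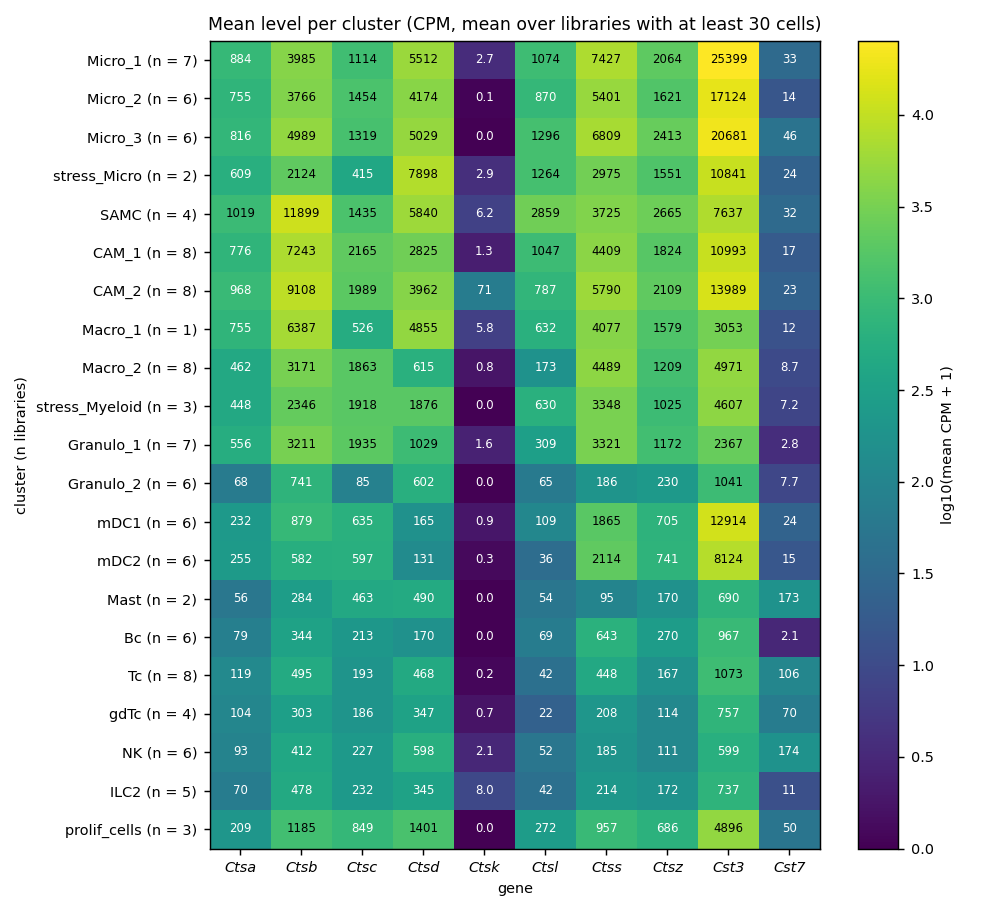
Mean level of each member in each of the 21 clusters over libraries in which it had 30 cells or more, colored by log10(mean CPM + 1). Microglia and macrophage clusters are high for Cst3 and most cathepsins, with Ctsb at 11899 CPM in SAMC and Cst3 at 25399 CPM in Micro_1, whereas Cst7 is highest in NK cells at 174 CPM.

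Over the 21 cluster means, on the scale log2(CPM + 1), several cathepsins followed each other closely: Ctsa and Ctss, Ctsa and Ctsz, and Ctss and Ctsz each had r = 0.96, and Ctsa and Ctsb r = 0.94. Ctsc and Ctsd were farther apart (r = 0.53), and Cst7 had little relation to Cst3 (r = -0.14) and a negative one to Ctss (-0.37). The points share libraries and depth, and the values are descriptions. The 2 genes nearest in profile to each member were sought among 3895 genes of at least 100 CPM in a cluster, leaving out the members. For Ctsb they were Cd68, the lysosomal glycoprotein of macrophages, and the scavenger receptor Msr1 (r = 0.963 and 0.950). For Ctsz they were Cd68 and the lysosomal enzyme Gusb (0.971 and 0.967). For Ctss they were P2ry6 and Aif1, both genes of microglia and macrophages (0.970 and 0.968). Lgmn, the lysosomal asparaginyl protease, and Rab3il1 were nearest to Ctsa (0.969 and 0.967), the ceramidase Asah1 and Adgre1 (F4/80) to Ctsc (0.923 and 0.901), and Syngr1 and Lhfpl2 to Ctsd (0.948 and 0.936). Sgk1 and Plod1 were nearest to Ctsl (0.957 and 0.953), Spint1 and 0610040J01Rik to Cst3 (0.937 and 0.931), Gpnmb and Arg1 to Ctsk (0.719 and 0.648), and Sytl3 and Dynll2 to Cst7 (0.742 and 0.713).

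The same libraries can be read from the side of the tissue: which clusters supplied the transcript. In control brain, where microglia clusters made up 86.9% of cells and 87.7% of all UMIs, they held 91% of all Cst3 UMIs and 87.5% of Ctsb UMIs. At 72 h microglia were 17% of cells and 10.1% of all UMIs and still held 42.6% of Cst3, but 6.4% of Ctsb. SAMC, at 8.02% of cells and 14.3% of all UMIs at 72 h, held 35.7% of Ctsb and 28.1% of Ctsl. In control dura the dendritic cell clusters, 14.6% of cells and 22.3% of all UMIs, held 54.6% of Cst3, and in dura at 24 h, with 15.3% of all UMIs, they held 49.5%. Lymphoid clusters held 73.2% of Cst7 UMIs in control dura and 61.6% in control pia. NK and Tc held 24.4% and 26.8% in control dura, at 3.12% and 6.34% of all UMIs. In control pia they held 26% and 32.9%, at 1.25% and 2.95%. In control brain microglia clusters held 55.9% of Cst7, below their 87.7% of all UMIs. There NK and Tc held 8.6% and 5.38% (8 and 5 UMIs), at 0.331% and 0.579% of all UMIs. Summed over all annotated cells, Cst3 was 44818 CPM in control brain, 21128 and 6074 at 24 h and 4185 at 72 h. Such a whole-tissue sum moves with the makeup of cells as well as with the level inside them, so the clusters were then taken one at a time.

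**Figure D3:**
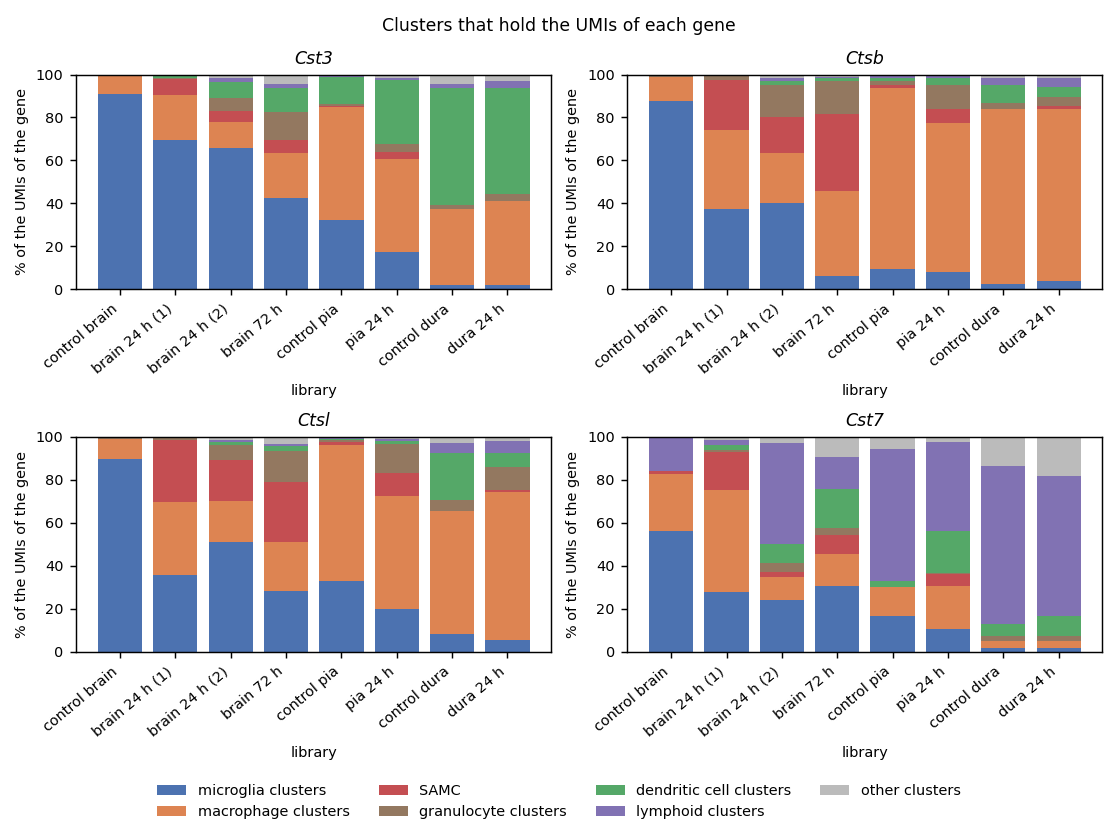
Share in percent of the UMIs of Cst3, Ctsb, Ctsl and Cst7 that came from each class of clusters, as stacked bars for each library. The microglia share of Cst3 is 91% in control brain and 42.6% at 72 h, and SAMC hold 35.7% of Ctsb at 72 h.

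Inside microglia, Cst3 was lower after stroke in brain and pia. In Micro_1 control brain held 53923 CPM of it, brain 24 h replicates 1 and 2 held 33365 and 14330, and brain 72 h 20664, with 37433 in control and 14044 in 24 h pia. In Micro_3 the same libraries gave 42631, 20207, 12497, 15822, 22067 and 10858 CPM. In both clusters every stroke library lay below the control of its tissue. The summed microglia markers fell as well. In Micro_1 they were 16718, 10962, 4832, 6176, 6637 and 2796 CPM over these libraries in the same order. In Micro_3 they were 12119, 4815, 2838, 4664, 3349 and 2050 CPM, and their part in the result was not tested. The fit that treats the libraries alike did not call the change of Cst3. For microglia only this fit and that with the gene list term were run. With the 6 brain and pia libraries, the log2 change at 24 h was -1.44 ± 0.66 (SE) in Micro_1, -1.18 ± 0.72 in Micro_2 and -1.37 ± 0.67 in Micro_3, with adjusted p = 0.9996 or above (edgeR's quasi-likelihood test, Benjamini-Hochberg adjustment over all genes). Genes were called at an adjusted p under 0.05 together with a 2-fold change. None of the 9 members tested was called, beside 0%, 0.0114% and 0.0998% of all genes in the 3 clusters. An unadjusted p under 0.05 was reached by 0, 0 and 1 member, beside 58 of 7261, 162 of 8800 and 292 of 8015 genes. With the gene list as a term, which leaves 1 residual degree of freedom, Cst3 was called in Micro_1 at -1.16 ± 0.23 (adjusted p = 7.4e-05) and in Micro_3 at -1.12 ± 0.27 (adjusted p = 0.0052). In Micro_2 its change of -0.93 ± 0.20 had an adjusted p of 0.0015 at under 2-fold. That fit called 1.45%, 0.852% and 2.48% of all genes.

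Ctsd and Ctsl in Micro_1 were highest at 72 h among the brain libraries. Ctsd in Micro_1 was 5425 CPM in control brain, 5480 and 8287 at 24 h and 12684 at 72 h, and Ctsl was 733, 796, 1387 and 2359. Both genes were thus higher in the 2 libraries of the shorter gene list than in the 2 of the longer, and time and gene list cannot be told apart here beyond the comparison of 24 h replicate 2 with 72 h. In that pair, Ctsd was higher at 72 h in 15 of 15 clusters, with a median of 0.61 in log2, whereas Ctsl was higher in 11 of 15 (median 0.25) and lower in SAMC (4811 to 1414 CPM), CAM_1 (3483 to 763), CAM_2 (1383 to 768) and, narrowly, mDC1. Ctsb was higher in 15 of 15 (median 0.77) and Ctss in 14 of 15 (0.65). Of 1264 genes with at least 10 UMIs in both libraries in all 15 clusters, 3.09% were higher in 15, 8.07% in at least 14 and 27.3% in at least 11.

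Cst7 was highest at 72 h in each microglia cluster, and most so in Micro_1 and Micro_3. It was 8.21 CPM in Micro_1 of control brain, 10.1 and 18.4 at 24 h and 94.8 at 72 h, and 11.6, 41.4, 32.4 and 141 in Micro_3. In Micro_2, the largest of these clusters at 72 h, it was 7.77, 13.1, 6.36 and 35.7 CPM over the same libraries, and in stress_Micro 7.05 in brain 24 h replicate 2 and 40.2 at 72 h. In control and 24 h pia Micro_1 held 27.4 and 34.6 CPM. The rise was not confined to microglia. From brain 24 h replicate 2 to 72 h, Cst7 was higher in 10 of the 14 clusters with a ratio (median 0.75 in log2). The counting interval lay above a ratio of 1 in 5 of them and below it in 1. Among genes with at least 10 UMIs in both libraries in as many clusters, 24.8% were as uniform and 1.27% had a median as high. To compare shares of cells at equal depth, cells under 1000 UMIs were left out. In all clusters these were 267 of 4297 in control brain and 362 of 4582 and 1600 of 3468 in the replicates of 24 h. At 72 h they were 1104 of 6049. Each remaining cell was thinned to 1000 UMIs. Then 9.16% of 131 Micro_1 cells at 72 h held a Cst7 UMI (95% interval 4.82 to 15.5%, exact binomial, counting error only). Against this stood 0.899% in control brain, 0.966% in the first 24 h replicate and 0 of 113 in the second. Micro_1 was 12.1% of all 3468 cells of that second replicate, so most of its Micro_1 cells had been left out. In Micro_3 the share was 11.4% (7.17 to 16.8%) at 72 h, and 1.22% in control brain, 2.59% and 1.88% in the replicates of 24 h. In Micro_2 it was 3.11% (1.15 to 6.64%) at 72 h, an interval that overlaps the 1.15% (0.647 to 1.9%) of control brain. Unthinned, the shares at 72 h were 13.6%, 21.2% and 3.7% in Micro_1, Micro_3 and Micro_2. B cells, which should lack the gene, gave 0 to 1.59% at the thinned depth over all libraries, and NK cells 11.4 to 26.2%. The higher level rests on the 1 library at 72 h and has no test.

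**Figure D4:**
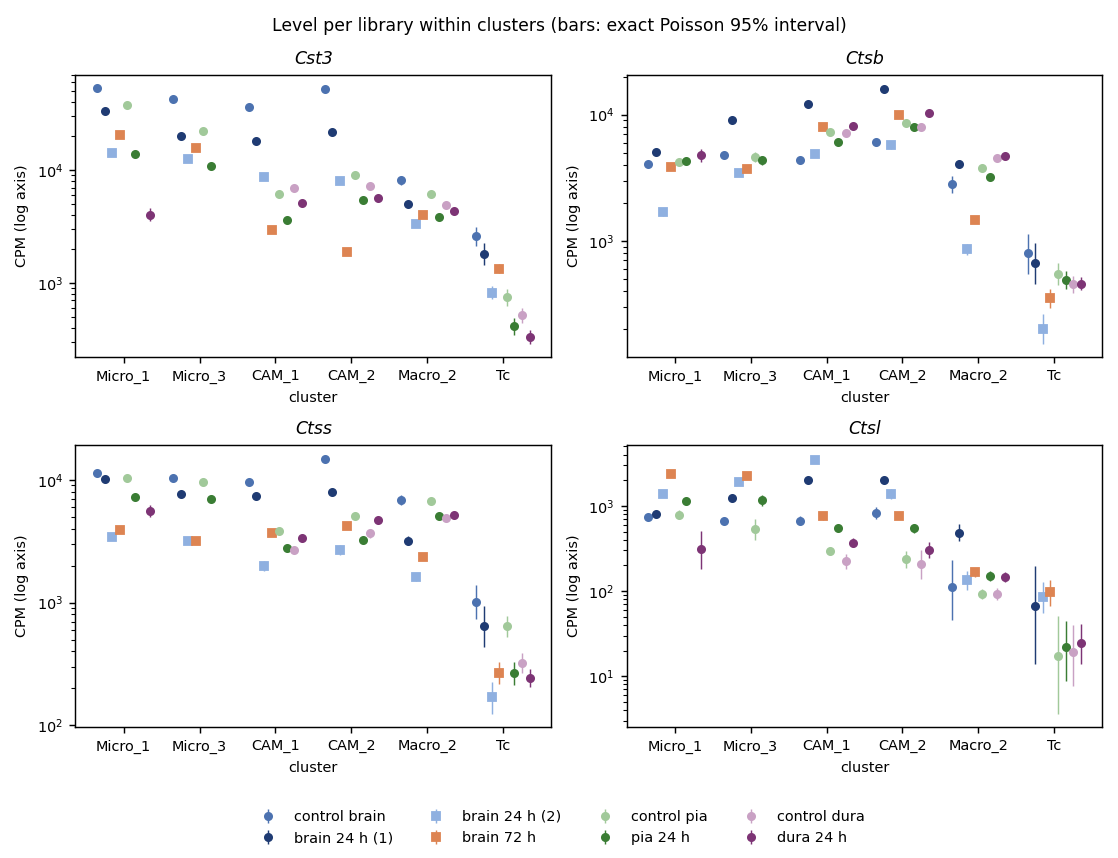
CPM (log axis) of Cst3, Ctsb, Ctss and Ctsl in 6 clusters, 1 point per library, with exact Poisson 95% intervals that cover counting error only; squares mark the 2 libraries of the shorter gene list, and a library at 0 UMIs is not drawn. Cst3 in Micro_1 runs from 53923 CPM in control brain to 14330 in brain 24 h replicate 2, and Ctsl in Micro_1 is highest in brain 72 h at 2359 CPM.

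Beyond microglia, control and 24 h libraries were compared in every cluster that had at least 30 cells in both. Cst3 was lower at 24 h in 7 of 7 clusters in brain against either replicate, in 13 of 14 in pia and in 12 of 14 in dura, with median log2 ratios of -0.86 (replicate 1), -1.77 (replicate 2), -0.83 and -0.16. Among genes with at least 10 UMIs in both libraries in as many clusters, 9.13%, 35.3%, 11% and 13.9% were lower as uniformly, and 1.92%, 9.86%, 2.99% and 21.7% had a median as low. Ctss was lower in 7 of 7, 7 of 7, 14 of 14 and 9 of 14, as uniformly as 9.13%, 35.3%, 6.64% and 32.6% of genes. Ctsl was higher at 24 h in 6 of 6, 6 of 6, 12 of 12 and 10 of 13 clusters where a ratio could be formed, with medians of 1.09, 0.94, 1.04 and 0.36. Of all genes, 19.4%, 16.4%, 2.24% and 28% were higher as uniformly, and 2.32%, 13.4%, 0.344% and 7.98% had a median as high. In the pair with brain 24 h replicate 2 the ratios of all genes were spread most widely, with an SD of 1.12 to 1.44 in log2 within a cluster, against 0.43 to 0.85 for replicate 1, and cluster medians of -0.85 to 0.65. These are ratios of 2 libraries with intervals for counting error only. Clusters of 1 library share its free RNA and its depth, so their number is no number of replicates.

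Ctsz and Ctsb showed how far the replicates of brain at 24 h differ. Ctsz was higher than in control brain in 7 of 7 clusters of replicate 1 but in 2 of 7 of replicate 2, and it was higher at 24 h in 13 of 14 in pia and 13 of 14 in dura. Ctsb was higher in 6 of 7 in replicate 1 and lower in 6 of 7 in replicate 2. Among genes with at least 10 UMIs in both libraries in as many clusters, 47.8% and 45.6% were as uniform as Ctsb. As uniformly higher as Ctsz were 20.2% in replicate 1, 11% in pia and 11.1% in dura. In replicate 2, where Ctsz was lower in 5 of 7, the share was 53.4%. Set directly side by side, replicate 2 was below replicate 1 in 10 of 10 clusters for Ctsa, Ctsb, Ctsc, Ctss and Ctsz, with medians of -0.98, -1.53, -1.56, -1.52 and -1.20, and above it in 8 of 10 for Ctsd. That is common between these 2 libraries: of 337 genes with 10 UMIs or more in all 10 clusters, 43% were lower in every cluster and 20.5% higher in at least 8, and 11.3 to 34.1% had medians as low as the 5 members.

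The 4 clusters CAM_1, CAM_2, Macro_2 and Tc reached 30 cells in all 8 libraries and were tested over libraries with additive terms for tissue and time. Ctsk passed the filter on low counts only in CAM_2, so 10 members were tested there and 9 in the other 3. At 24 h against control no member was called in any of the 4 clusters, where 0%, 0.0154%, 0.0207% and 0% of all genes tested were called, in the order above. At an unadjusted p under 0.05 stood 1, 1, 0 and 2 members, beside 449 of 8718, 435 of 6508, 356 of 9666 and 106 of 6361 genes. DESeq2 called 0 members in each. For Cst3, the log2 change was -1.01 ± 0.49 in CAM_1 (adjusted p = 0.933) and -1.12 ± 0.59 in CAM_2. In brain, where the microglia markers of CAM_1 were 10671 CPM in control and 2736 and 1219 at 24 h and those of CAM_2 12203, 2470 and 983, the markers moved with it, and their part was not tested. For Ctsl in CAM_1 the values were 671 CPM in control brain, 2012 and 3483 in brain at 24 h, 296 and 556 in control and 24 h pia, and 224 and 372 in control and 24 h dura, so each 24 h library was above the control of its tissue. With the gene list term Ctsl was called in CAM_1 (1.07 ± 0.22, adjusted p = 0.0053) and CAM_2 (1.02 ± 0.25, adjusted p = 0.0064), along with Ctsk in CAM_2. That fit called 4.97%, 4.95%, 2.52% and 0.409% of all genes. With both libraries of the shorter gene list left out, Ctsl was called in CAM_1 (1.04 ± 0.21, adjusted p = 0.0121, beside 4.77% of all genes) and stood at 0.98 ± 0.24, just under 2-fold, in CAM_2 (adjusted p = 0.0234).

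At 72 h against 24 h no member was called, beside 0.184%, 0.169%, 0% and 0% of all genes in CAM_1, CAM_2, Macro_2 and Tc. At an unadjusted p under 0.05 stood 2, 3, 1 and 0 members, beside 1023, 595, 420 and 106 of all genes tested. DESeq2 called 1 member, Cst3 in CAM_2. In CAM_2 the brain values of Cst3 were 52792 CPM in control, 21850 and 7970 at 24 h and 1896 at 72 h, and the summed level of the 5 microglia markers in CAM_2 was 12203, 2470, 983 and 282 CPM in the same libraries. The part of the markers was not tested. With the gene list term, 1 member was called in each macrophage cluster, against 7.69%, 2.01%, 1.11% and 0.22% of all genes: Ctsl in CAM_1 (-1.90 ± 0.38, adjusted p = 0.0036), Cst3 in CAM_2 (-1.77 ± 0.44, adjusted p = 0.0138) and Ctsd in Macro_2 (1.57 ± 0.32, adjusted p = 4.4e-04). With that term the contrast is 1 library against 1, and the spread behind these p-values comes from the other libraries, so they have no replicate check. Left without brain 24 h replicate 2, the fit called 6 of 9 members in CAM_1, 6 of 10 in CAM_2, 4 of 9 in Macro_2 and 1 of 9 in Tc, beside 33.3%, 38.4%, 16.7% and 11.6% of all genes.

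Most calls came from brain against borders. Brain 72 h is the only library at 72 h, so the term for that time takes up its level. The contrast therefore rests on control brain and the replicates of brain at 24 h, and the values of brain 72 h are shown beside it. In CAM_1, Cst7, Ctsd and Ctsl were higher in brain than in pia and dura, by 3.30 ± 0.72 (adjusted p = 0.0286), 1.70 ± 0.42 (adjusted p = 0.0467) and 1.67 ± 0.40 (adjusted p = 0.0421) in log2, where the median of all genes was 0.15. These 3 of 9 stand beside 7.1% of all genes. Cst7 in CAM_1 was 36.7, 64.6, 12.5 and 8.36 CPM in control brain, brain 24 h replicates 1 and 2 and brain 72 h, against 4.38 and 6.55 in pia and 2.16 and 1.25 in dura. These levels rest on few UMIs, such as 14 in control brain, 97 in brain 24 h replicate 1, 6 in control pia and 12 in pia at 24 h. Ctsd in CAM_1 was 4356, 3034, 5214 and 6233 CPM in the brain libraries in the same order, against 1036 and 710.1 in pia and 744 and 1273 in dura. For Ctsl in CAM_1 the lowest brain library was control brain at 671 CPM and the highest border library was pia at 24 h with 556.

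In CAM_2, Ctsl alone was called, at 1.76 ± 0.41 (adjusted p = 0.0305), beside 3.81% of all genes. It was 835, 2010, 1383 and 768 CPM in brain, 236 and 548 in pia and 209.5 and 304 in dura. In Macro_2 none of 9 was called (0.372% of all genes, 1 member at an unadjusted p under 0.05 beside 1494 of 9666 genes, and 0 by DESeq2). In Tc, Cst3 was called at 1.79 ± 0.38 (adjusted p = 0.0341), beside 0.645% of all genes. The level of Cst3 in Tc was 2605, 1811, 818 and 1341 CPM in brain, 747 and 411 in pia and 516 and 332 in dura. The microglia markers in Tc took a similar course, with 695, 201, 122 and 217 CPM in brain, 40.9 and 15.6 in pia and 8.27 and 0 in dura, and their part in the result was not tested.

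Ctsc leaned the other way in CAM_1 and Macro_2 and was not called with all libraries in the fit. The markers of CAM_1 differ between brain and borders as described above, and their part was not tested. In CAM_1 Ctsc was 1054, 3019, 819.7 and 637 CPM in brain, against 3408 and 2779 in pia and 2807 and 2796 in dura. Brain 24 h replicate 1 thus lay among the border libraries. In Macro_2 it was 2002, 2059, 534 and 469 CPM in the brain libraries and 2326 to 2593 in the borders. The log2 differences were -1.31 ± 0.59 (adjusted p = 0.217) and -1.03 ± 0.47 (adjusted p = 0.318), and without brain 24 h replicate 1 they were -2.09 ± 0.47 (adjusted p = 0.0409) and -1.47 ± 0.50 (adjusted p = 0.0234), both called, beside 6.53% and 18.3% of all genes.

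The gene list term raised the count for brain against borders to the same 6 members in CAM_1 and CAM_2, Cst3, Cst7, Ctsd, Ctsl, Ctss and Ctsz, all higher in brain, and to Cst3 and Ctss in Tc, with 0 in Macro_2. These counts stand beside 25.7%, 19.1%, 1.89% and 3.26% of all genes in CAM_1, CAM_2, Tc and Macro_2. The calls without the term were fragile. Cst7 in CAM_1 was no longer called when any 1 of control brain (adjusted p = 0.169), control dura (0.108), control pia (0.0582), brain 24 h replicate 1 (0.13), dura 24 h (0.203) or pia 24 h (0.0743) was left out, in the same test. Ctsl and Ctsd in CAM_1, Ctsl in CAM_2 and Cst3 in Tc were likewise lost without any 1 of the 3 controls, dura 24 h or pia 24 h, and Ctsl in CAM_1 also without brain 24 h replicate 1. Their estimates stayed positive, between 1.46 and 3.76. With library size in place of TMM, the median of all genes in CAM_1 moved to 0.59 and the share of calls that were higher in brain from 38% to 62.4%, and in CAM_2 the median went from 0.16 to 0.41 and the share from 41.9% to 66.5%. The 4 called values then stood at 3.67 for Cst7, 2.16 for Ctsd and 2.15 for Ctsl in CAM_1 and 2.01 for Ctsl in CAM_2.

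**Figure D5:**
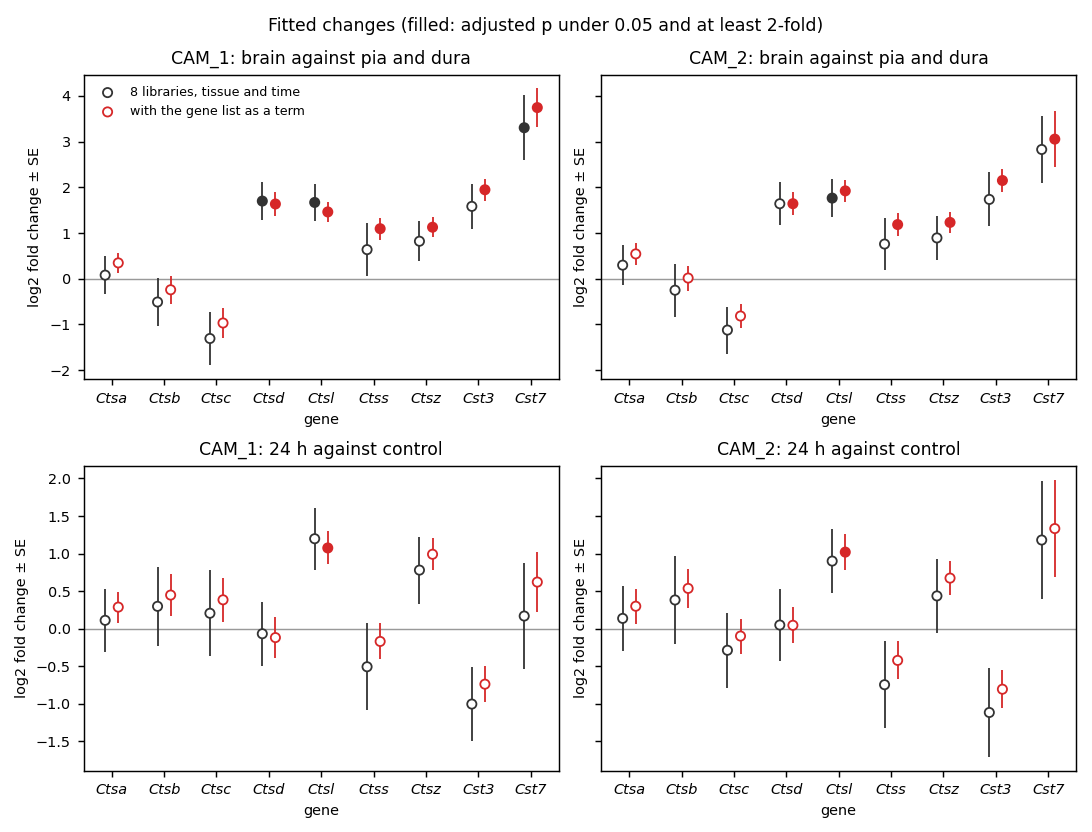
Log2 difference of 9 members in CAM_1 and CAM_2 for brain against pia and dura and for 24 h against control, with bars of 1 standard error, from the fit without and with the gene list term; filled points were called. For brain against borders in CAM_1, Cst7 stands at 3.30, Ctsd at 1.70 and Ctsl at 1.67, and at 24 h no point of the fit without the term is filled.

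Between pia and dura, no member was called in CAM_1, Macro_2 or Tc (0%, 0.103% and 0.0314% of all genes, and 0 members by DESeq2). There 0 members had an unadjusted p under 0.05 in each, beside 163, 286 and 70 of all genes tested. In CAM_2 the call was Ctsk, lower in pia (adjusted p = 0.0361), beside 0.0154% of all genes. The pia libraries held no Ctsk UMI in this cluster and the dura values were 22.5 and 521 CPM, so the result is that of the 5 cells described above, and without dura 24 h the gene did not pass the filter on low counts. With the gene list term the call was again Ctsk, beside 0.784%.

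Whether the change at 24 h differed between brain and border was tested by a further term. No member was called in any of the 4 clusters, and neither was any other gene (0%, 0%, 0% and 0%). No member had an unadjusted p under 0.05, beside 129, 109, 292 and 191 genes in CAM_1, CAM_2, Macro_2 and Tc, and DESeq2 called no member. In simulated data this contrast recovered 0 to 1.06% of genes changed 4-fold, so it could hardly have called one. With the gene list term, Ctsb (1.41 ± 0.25) and Ctsc (1.56 ± 0.26) were called in CAM_1, beside 2.71% of all genes. The values behind this are from 1 brain library: Ctsb in CAM_1 went from 4370 CPM in control brain to 12125 in the first replicate but to 4852 in the second, and Ctsc was 1054, 3019 and 819.7 in the same order.

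Other genes of the pathway were taken from 3 lists. Of 6 other cathepsins, 3 or 4 were tested in a cluster and none was called without the gene list term, where the fits called 0 to 7.1% of all genes. The lymphocyte cathepsin Ctsw was highest in NK cells (549.5 ± 126 CPM, n = 6), Ctsh in the dendritic cluster mDC2 (977 ± 308, n = 6) and Ctsg, a granule protease of immature neutrophils, in proliferating cells (206 ± 56.5, n = 3). Of 9 other cystatins and stefins only Cstb, the intracellular inhibitor stefin B, was tested. It was lower in brain than in the borders in CAM_1 (-1.80 ± 0.41, adjusted p = 0.0347), beside 7.1% of all genes called. Its sign was opposite to that of Cst3 and Cst7. Cstb was highest in Granulo_1 (1371 ± 960.0 CPM, n = 7), and the stefins Cstdc4 (378 ± 342, n = 6) and Stfa2l1 (244 ± 163, n = 6) were highest in Granulo_2.

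Of 14 lysosomal partners and regulators, 10 to 14 were tested and none was called without the gene list term, beside the same 0 to 7.1% of all genes. The saposin precursor Psap was highest in Macro_1 (5024 CPM, 1 library), as was the progranulin gene Grn (1755), and Lgmn in Micro_1 (4936 ± 2639, n = 7). In the fit with the gene list term, 3 of 14 were called for brain against borders in each of CAM_1 and CAM_2, 1 of 14 in Macro_2 and 1 of 10 in Tc, where that fit called 25.7%, 19.1%, 3.26% and 1.89% of all genes, so the shares in CAM_1 and CAM_2 are near the background. Brain exceeded the borders for Tfeb (1.53 ± 0.33 in CAM_1, 1.52 ± 0.52 in CAM_2), for the sorting receptor Sort1 (1.50 ± 0.47 and 4.88 ± 1.08) and for Lgmn (1.09 ± 0.24 in CAM_2, 1.73 ± 0.36 in Tc), whereas Cstb (-1.58 ± 0.24 in CAM_1, -1.20 ± 0.28 in CAM_2), Scpep1 (-1.02 ± 0.25 in CAM_1) and the sialidase Neu1 (-3.54 ± 0.96 in Macro_2) were lower. At 72 h against 24 h in CAM_1, with that term and thus for 1 library against 1, Cstb (2.64 ± 0.39), Psap (2.18 ± 0.42), Ctsh (1.71 ± 0.43) and Grn (1.40 ± 0.37) were higher, beside 7.69% of all genes called.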

How the data were processed

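Per the labels and the study's methods, the authors aligned 10x Genomics 3′ reads to mm10 with Cell Ranger 6.0 and deposited UMI counts per cell, together with a table of cluster names made with Seurat after integration and removal of doublets. Its 2 UMAP coordinates were not used, and no further doublet removal was done. The deposited counts of annotated cells were summed per library and cluster over the 30406 genes in all libraries (6591898 to 20754181 UMIs per library in all barcodes). Levels are CPM of these sums for clusters of at least 30 cells. Members, lists and markers were chosen with earlier results of these data known. One marker gene is not reported here and was left out of the marker sums. All 10 members are named, and of the lists the genes called or among the highest.

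Comparisons used edgeR 4.0.16 (TMM, filterByExpr, robust quasi-likelihood, two-sided, Benjamini-Hochberg) in R 4.3.3, with tissue and time as terms and 3 residual degrees of freedom (2 with the gene list term). The self-test on simulated counts recovered 26.2 to 45.9% of genes changed 4-fold for 24 h, 4.69 to 10.2% for 72 h against 24 h, 10.7 to 37.2% for pia against dura and 36.6 to 51.3% for brain against borders. Alternatives were DESeq2 1.42.0, limma 3.58.1, other scalings and filters, thinning to 1000 UMIs per cell, kit version, and leaving out libraries. The fits without both libraries of the shorter gene list, those of microglia and the levels in the 6 other libraries were added after seeing the data. Intervals cover counting error only. Free RNA was not removed.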

Additional observations from a re-analysis of the deposited data

Results flagged for a closer look

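Several members moved in opposite directions from control to 24 h in different tissues. Each side is 1 library pair (brain has 2 libraries at 24 h, both of which moved the same way), the difference itself was not tested for these pairs, and the term for a brain-specific change called none of them in the fit of tissue and time. With the gene list term it called Ctsb in CAM_1 (1.41 ± 0.25, beside 2.71% of all genes), and without brain 24 h replicate 1 it called Ctss in CAM_1, CAM_2 and Macro_2, beside 27.2%, 10.3% and 5.57% of all genes. For Ctss the log2 change in brain minus that in dura was -1.66 in CAM_1, -2.02 in CAM_2 and -1.68 in Macro_2, and that in pia minus that in dura was -0.81, -1.02 and -0.51. In CAM_2, Ctss was 14687 CPM in control brain and 8007 and 2702 at 24 h, 5107 and 3236 in pia, and 3659 and 4687 in dura. For Ctsb the change in brain minus that in pia was 1.08 in CAM_1, and that in pia minus that in dura was -0.44 in CAM_1 and -0.46 in CAM_2. For Ctsd in CAM_1 the change in pia minus that in dura was -1.32.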

How the results depend on the processing

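Of 328 alternatives to the 20 counts of called members, 257 kept the count within 1.5 times, 31 lowered and 40 raised it. Only counts were compared, so a turned direction could not show, and a count of 0 that stayed 0 is among those kept. Raised counts were, with the gene list term, 24 h against control 1 in CAM_1 and 2 in CAM_2, 72 h against 24 h 1 each in CAM_1, CAM_2 and Macro_2, brain against borders 6, 6 and 2 in CAM_1, CAM_2 and Tc, and the brain-specific 24 h change 2 in CAM_1. Without both libraries of the shorter gene list the counts were 1 (24 h, CAM_1), 6, 6, 1 and 3 (brain against borders in CAM_1, CAM_2, Macro_2 and Tc), 2 (brain-specific change, CAM_1) and 0 (pia against dura, CAM_2), beside 4.77%, 27.6%, 22.6%, 3.05%, 1.41%, 2.75% and 0.62% of all genes. DESeq2 gave 1 for 72 h against 24 h, 0 for pia against dura and 3 for brain against borders in CAM_2 (0.876%, 0% and 4.92% of all genes). Library size alone gave 0 for pia against dura and 3 for brain against borders in CAM_2 (0% and 3.86%), and no filter on low counts 1 for 24 h and 3 for brain against borders in CAM_2 (0.339% and 3.28%). Kit version as a term, as the study's supplement assigns it and against the grouping by gene lists and shared barcodes, gave 0 for brain against borders in CAM_1, CAM_2 and Tc (1.54%, 0.876% and 0.267%) and for pia against dura in CAM_2. Which libraries used which kit is thus in doubt. Limma on mean CPM per cell gave 1, 3 and 0 for brain against borders in CAM_1, CAM_2 and Tc (2.91%, 3.14% and 0.0616%) and 0 for pia against dura in CAM_2, and thinning gave 0 for the last. The cause of these changes was not tested. Leaving out both libraries of the shorter gene list is nearly the same fit as the gene list term, so its counts are no separate check.

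Leaving out each library in turn gave 0 to 1 (CAM_1) and 0 to 2 (CAM_2) for 24 h, 0 to 6, 0 to 6, 0 to 4 and 0 to 1 (CAM_1, CAM_2, Macro_2 and Tc) for 72 h against 24 h, 0 to 6, 0 to 6, 0 to 2 and 0 to 2 for brain against borders, 0 to 4, 0 to 3, 0 to 3 and 0 to 2 for the brain-specific change, and 0 to 1 for pia against dura in CAM_2. The highest counts came without brain 24 h replicate 2 for 72 h against 24 h and, in CAM_1 and CAM_2, for brain against borders, and without replicate 1 for the brain-specific change. Many other genes were called in such fits. For brain against borders without replicate 1 it was 6.53% of all genes in CAM_1 and 18.3% in Macro_2. The shares for 72 h against 24 h are given above. Other ranges are given without such shares, so none is a result about the members. All 129 alternative mean levels moved by less than 1 SD. Where 1 library was left out, a mean could not have moved by 1 SD of the same values, so this limit decides nothing there. The highest cluster was kept in 118 of 130. It changed for Ctsa, Ctsc, Ctsd, Ctsk, Ctsz and Cst7, and for Ctsk without dura 24 h. No paired analysis was possible because only brain at 24 h has numbered replicates. Clusters with few cells, 30 at the least, limit Ctsk and Cst7.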
